A study of Homo sapiens with 6 samples.

Results

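The genes of mitosis and of the passage from G2 into M phase were followed across 6 arrays of HSC3 cells, a cell line established from a squamous carcinoma of the human tongue. The set was a list of 48 genes named by their function, with no threshold on the values but with earlier results of these data known, and 47 of them had a probe that names 1 gene, out of 18757 genes named on the array. The probe of PRC1, a protein that bundles microtubules in the spindle midzone, also names its antisense neighbour and was given no value. Each one-colour CodeLink array carried Cy5-labelled RNA of HSC3 cells under 1 condition, and the labels call these conditions control, MIA siRNA, MIA2 siRNA, TANGO siRNA, MATE2 siRNA and LEMD1 siRNA. The design text gives the control cells a control siRNA, while the array methods describe them as untreated, so the control array is called here by its label. Small interfering RNA (siRNA) lowers the messenger RNA it is directed against, and all 6 conditions share the same parental line. As each condition has 1 array, there are no replicates, no error of a ratio and no test, and every difference is one between 2 arrays.

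The value given for a gene is its normalized signal, the spot's brightness above its local background, brought to the same distribution on the 6 arrays by quantile normalization. A log2 ratio of 1 is 2-fold, and a member is said to have risen or fallen only where it differed by at least 2-fold with a spot that the scanner software flagged as good on both arrays. Good gene spots numbered 27545 to 30628 per array, and the lowest good signal lay between 27.5 and 38.6. Of the members, 35 had a good spot on all 6 arrays and 12 on some of them. The log2 ratio of the MIA siRNA array to the control array had a robust SD of 0.25 over all named genes, which holds any true difference as well as noise.

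The siRNA targets themselves were only partly as the labels name them. LEMD1, the gene of a LEM domain protein, gave a signal of 278 on control. It gave only background on the arrays labelled LEMD1 siRNA, at least 10.1-fold lower, and MIA2 siRNA, at least 6.57-fold lower. On the arrays labelled MATE2 siRNA and TANGO siRNA it was above control, at 1011 and 3192, and on MIA siRNA it was 195. The MIA2 gene was 155 on control and 169 on the array labelled MIA2 siRNA. SLC47A2, the gene of the transporter MATE2, was 1510 on control, 79.6 on the array labelled MATE2 siRNA and 58.9 on the array labelled TANGO siRNA. MIA was near background throughout and MIA3, the gene of TANGO, had no named probe, so neither could be checked. Over probes good on both arrays, the TANGO siRNA and MATE2 siRNA arrays had correlations of 0.880 to 0.909 with the other arrays and 0.915 with each other, while the other 4 arrays had 0.928 to 0.976 among themselves. The epithelial markers KRT5, KRT14, KRT8 and KRT18, EPCAM and TP63 were good on every array. Of the 8 epithelial markers listed, 7 were good on both arrays in each comparison with control. The endothelial CDH5, KDR and TEK and the leukocyte PTPRC were near background on every array. In each comparison with control, however, 4 of 7 fibroblast, 1 of 5 endothelial and 1 or 2 of 7 leukocyte markers were good on both arrays.

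Entry into mitosis is driven by CDK1 bound to B-type and A-type cyclins, which the CDC25 phosphatases switch on and Aurora and Polo-like kinases help to activate. The spindle then captures chromosomes through kinetochores, the checkpoint proteins hold the anaphase-promoting complex back until every chromosome is attached, and CDC20 and UBE2C let that complex destroy cyclin B and securin. Many of these genes are transcribed together late in the cycle, under complexes of MuvB with B-MYB and FOXM1, through CCAAT boxes that bind NF-Y and a short element called the cell cycle genes homology region (CHR).

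The promoters of 6 members are shown because their genes had different profiles on the arrays, and they were chosen after the values were seen. CCNB1, CCNB2 and CDC20 rose on the MIA2 siRNA and LEMD1 siRNA arrays, and CCNA2, SPC25 and NDC80 fell on the TANGO siRNA array by more than 4-fold. Each line holds the 150 bases before the RefSeq start of transcription on GRCh38.p14, 5′ to 3′ on the strand of the gene, and capitals mark CCAAT or its reverse complement ATTGG and the CHR spelled TTTGAA or TTCGAA on either strand.
CCNB1 (cyclin B1, chr5:69167000-69167149, plus strand): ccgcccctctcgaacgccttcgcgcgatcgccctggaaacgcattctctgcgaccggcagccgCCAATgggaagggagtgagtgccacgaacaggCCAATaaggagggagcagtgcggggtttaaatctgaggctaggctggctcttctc
CCNB2 (cyclin B2, chr15:59104996-59105145, plus strand): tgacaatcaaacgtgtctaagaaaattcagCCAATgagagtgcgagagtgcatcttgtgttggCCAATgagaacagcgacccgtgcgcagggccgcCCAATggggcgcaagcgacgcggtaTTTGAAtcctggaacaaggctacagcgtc
CDC20 (chr1:43358831-43358980, plus strand): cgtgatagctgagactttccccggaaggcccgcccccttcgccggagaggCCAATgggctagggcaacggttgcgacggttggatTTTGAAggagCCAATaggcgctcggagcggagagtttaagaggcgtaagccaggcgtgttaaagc
CCNA2 (cyclin A2, chr4:121823884-121824033, minus strand): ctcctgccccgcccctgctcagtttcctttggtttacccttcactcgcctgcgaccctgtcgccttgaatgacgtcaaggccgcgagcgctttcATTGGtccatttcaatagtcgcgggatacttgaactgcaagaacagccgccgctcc
SPC25 (chr2:168890431-168890580, minus strand): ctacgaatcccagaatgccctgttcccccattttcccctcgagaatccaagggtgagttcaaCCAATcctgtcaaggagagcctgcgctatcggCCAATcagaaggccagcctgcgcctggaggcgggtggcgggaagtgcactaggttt
NDC80 (chr18:2571407-2571556, plus strand): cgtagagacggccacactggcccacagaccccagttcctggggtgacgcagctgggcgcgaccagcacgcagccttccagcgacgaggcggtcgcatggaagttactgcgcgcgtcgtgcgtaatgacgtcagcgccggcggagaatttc
CCNB1 held CCAAT at -87 to -83 and at -55 to -51 relative to the start, and SPC25 at -88 to -84 and -56 to -52. CDC20 and CCNB2 held a CHR between the CCAAT boxes or after them, at -65 to -60 in CDC20 and at -29 to -24 in CCNB2. The window of NDC80 held neither set of letters.

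Over the 250 bases before the start, 33 of the 40 members with a RefSeq window held at least 1 CCAAT (82.5%), against 37% of 27305 genes. The CHR letters stood in 24 of 40 members (60%), against 17.2% of genes, and both motifs in 21 (52.5%), against 6.24%. More than 1 CCAAT was present in 21 members, or 52.5%, and in 11.5% of genes. These are matches of letters, found on either strand and allowed to share end letters, and not measured binding. A gene with several windows was counted if any of them held the letters. No spelling of the CHR other than TTTGAA and TTCGAA was searched, so a gene counted without it may hold another form. BIRC5, TTK, BUB3, UBE2C, FOXM1, AURKA, RACGAP1 and TPX2 had no window.

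On the LEMD1 siRNA array the members lay above control almost throughout. Of 47 measured members 46 had a log2 ratio above 0, and BUB3 alone was below, at -0.15. The median was 0.62, against -0.02 over 12924 named genes. By at least 2-fold 14 members rose and 0 fell, where 2.03% of all genes rose and 3.98% fell. In bulk RNA a change in the share of cells in G2 or M phase and a change in RNA per cell cannot be told apart. Of the 14 that rose, 12 had a promoter window, of which 12 held CCAAT and 7 the CHR. Of the 27 with a window among the other 33 members, 20 held CCAAT and 16 the CHR.

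The TANGO siRNA array showed the opposite side of control. Of the 36 members with a good spot on both arrays 21 fell and 0 rose, with a median of -1.19 against -0.03 over all genes, of which 9.09% fell and 5.57% rose. A further 10 members were near background there, and TPX2, which targets Aurora A to the spindle, had an irregular spot. Of the 21 that fell, 18 had a promoter window, of which 13 held CCAAT and 10 the CHR. Of the 12 with a window among the other 15 measured members, 12 held CCAAT and 8 the CHR. The TANGO siRNA array stood apart over all probes too, and the part of this in the result was not tested. Among the 35 members good on all arrays, 28 had their lowest signal on the TANGO siRNA array, where 23.1% of 11436 genes did, and 25 had their highest on the LEMD1 siRNA array, where 12.5% of genes did.

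The other arrays were more moderate. On the MIA2 siRNA array 9 of 45 members rose and 0 fell, with a median of 0.23 against -0.01, and 3.29% of all genes rose and 5.21% fell. Of the 9 that rose, 7 had a promoter window, of which 7 held CCAAT and 3 the CHR. Of the 31 with a window among the other 36 measured, 25 held CCAAT and 19 the CHR. On the MATE2 siRNA array 2 of 43 rose and 5 fell, with a median of -0.11 against -0.03, and here 5.95% of genes rose and 11.7% fell, so neither count stood above the share of all genes. On the MIA siRNA array 0 of 45 members passed the rule, with ratios from -0.42 to 0.59 and a median of -0.10 against -0.04, while 0.391% of genes rose and 0.258% fell. All 5 of these comparisons share the control array.

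**Figure D1:**
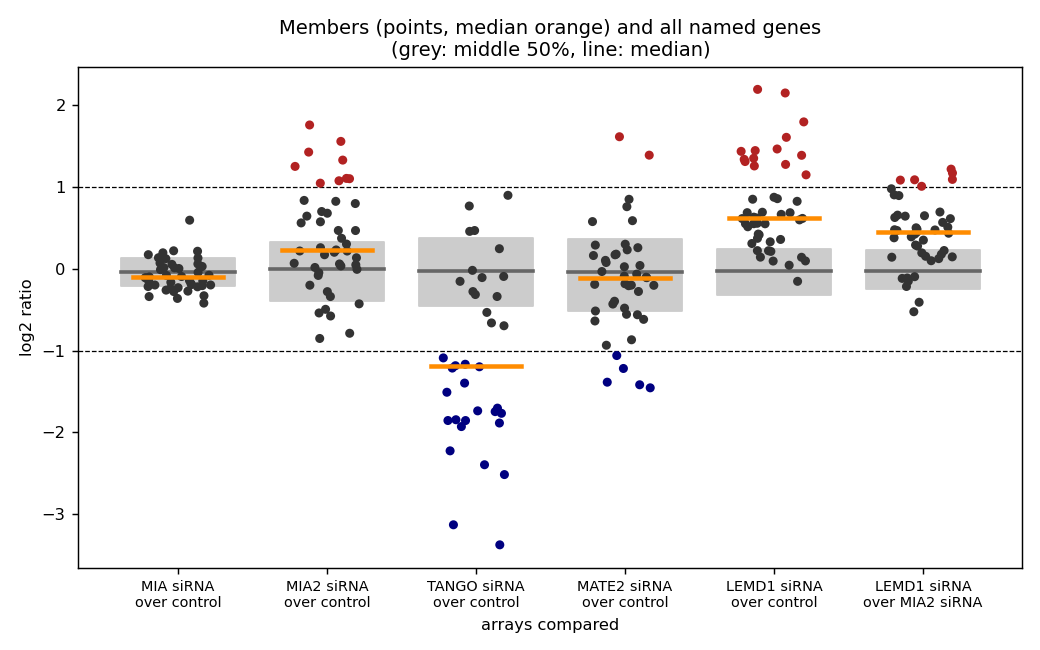
Log2 ratios of the members whose spots were good in both arrays (points; red at least 2-fold higher, blue at least 2-fold lower) in the 6 comparisons, with the median of the members in orange, and the middle 50% and median of all named genes in grey. The members center at 0.62 on the LEMD1 siRNA array and at -1.19 on the TANGO siRNA array, while the medians of all genes stay between -0.04 and -0.01.

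Among CDK1, the cyclins and their phosphatases, CCNB1 had the highest ratios on the MIA2 and LEMD1 siRNA arrays. On the TANGO siRNA array 4 of these 6 fell, beside 9.09% of all genes, and CCNB1 and CDC25B did not. CCNB1 had a signal of 460.0 on control, 461 on MIA, 1556 on MIA2, 431 on TANGO, 550.3 on MATE2 and 2040.5 on LEMD1 siRNA. It thus rose on MIA2 (log2 1.76) and LEMD1 (2.15), and the other 4 arrays lay close together. CCNB2 had 496 on control, 501 on MIA, 1181 on MIA2, 188 on TANGO, 739.8 on MATE2 and 1265 on LEMD1 siRNA. It rose on the same arrays (1.25 and 1.35) but fell on TANGO (-1.40).

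CDK1, the catalytic partner of these cyclins, stood at 1071 on control, 1117 on MIA, 883 on MIA2, 204 on TANGO, 944 on MATE2 and 1250.2 on LEMD1 siRNA. Only the TANGO array was low, by 5.26-fold, and the other 5 lay within 2-fold of each other. CCNA2, cyclin A2, had 416 on control, 404 on MIA, 666 on MIA2, 72.8 on TANGO, 282 on MATE2 and 754 on LEMD1 siRNA, a log2 ratio to control of -2.51 on TANGO and 0.86 on LEMD1. CDC25C, which removes the inhibitory phosphates from CDK1, fell on TANGO (-1.18), whereas CDC25B was at 0.90 there and rose on LEMD1 (1.15).

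Of the mitotic kinases, AURKA and NEK2, both centrosomal, were higher on MIA2 and LEMD1. AURKA was 306 on control, 318 on MIA, 657 on MIA2, 242 on TANGO, 323 on MATE2 and 1063 on LEMD1 siRNA, with log2 ratios of 1.10 and 1.80 on MIA2 and LEMD1 and -0.34 on TANGO. NEK2 was 208 on control, 172 on MIA, 430.4 on MIA2, 57.6 on TANGO, 114 on MATE2 and 527 on LEMD1 siRNA, and it rose on MIA2 (1.05) and LEMD1 (1.34) and fell on TANGO (-1.85). The 2 genes thus lay alike on MIA2 and LEMD1 and parted on TANGO.

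AURKB, the kinase of the chromosomal passenger complex, was 1179 on control, 1015 on MIA, 1115 on MIA2, 135 on TANGO, 1267 on MATE2 and 1302 on LEMD1 siRNA by its brightest probe, a fall of 8.74-fold on TANGO. Its other probe disagreed, with 123 on control and 195 on TANGO (log2 0.66), so the fall rests on 1 probe. TTK, the checkpoint kinase MPS1, was 154 on control and near background on TANGO, at least 4.92-fold lower. PLK1, which acts from mitotic entry to cytokinesis, did not pass the rule on any array by its brightest probe, from 851 on control to 1169 on TANGO. Its other probe was good only on MIA2 (46.0) and LEMD1 (66.2) siRNA.

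Of the checkpoint and anaphase genes, the activator CDC20 and the ubiquitin-conjugating enzyme UBE2C fell on TANGO and differed elsewhere. CDC20 had 169 on control, 159.9 on MIA, 424 on MIA2, 72.8 on TANGO, 191 on MATE2 and 514 on LEMD1 siRNA. Its ratios were 1.33 on MIA2, 1.61 on LEMD1 and -1.21 on TANGO. UBE2C had 1027 on control, 817 on MIA, 1421 on MIA2, 308 on TANGO, 3143 on MATE2 and 1329 on LEMD1 siRNA. It was highest on MATE2 (log2 1.61), where CDC20 was at 0.18, and fell on TANGO (-1.74).

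MAD2L1, the checkpoint protein that binds CDC20, fell on TANGO (-1.70), from 882 on control to 271. BUB3, which docks checkpoint kinases at kinetochores, was 848 on control, 843 on MIA, 569 on MIA2, 1006 on TANGO, 309.7 on MATE2 and 763 on LEMD1 siRNA. It fell on MATE2 (-1.45) and was the only member below control on LEMD1, while it was at 0.25 on TANGO. PTTG1, securin, rose only on MIA2 (1.08), where it was 210.4 against 99.8 on control. BUB1 and BUB1B had signals of 49.1 and 45.3 on control, close to background, and gave bounds under 2-fold on TANGO.

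Of the 6 kinetochore genes 3 were measured on TANGO, and all 3 fell, with a median of -2.22, beside 9.09% of all genes. CENPA, CENPF and NUF2 were near background there and are not in this median, so it is not ranked against other roles. SPC25, a subunit of the NDC80 complex that holds microtubules, was 579.9 on control, 523 on MIA, 561 on MIA2, 56.0 on TANGO, 540.0 on MATE2 and 619 on LEMD1 siRNA. The 5 arrays other than TANGO lay within 523 to 619, and TANGO was 10.4-fold below control. NDC80 itself went from 224 on control to 48 on TANGO (-2.22) and lay between 185 and 260.0 on the others. NUF2, the partner of NDC80, was 56.9 on control and near background on TANGO, at least 1.81-fold lower.

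CENPA, the histone H3 variant of centromeres, rose on MIA2 (1.43) and LEMD1 (1.28), from 90.3 on control to 243 and 219, and was near background on TANGO, at least 2.25-fold lower. CENPF rose on LEMD1 (1.46), fell on MATE2 (-1.06) and was at least 2.62-fold lower on TANGO. The kinetochore motor CENPE fell on TANGO (-1.20) and was at 0.87 on LEMD1.

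Of the 7 kinesin motors 3 rose on LEMD1, and 3 of the 4 measured on TANGO fell there, beside 2.03% and 9.09% of all genes. KIF20A, a kinesin of the central spindle, was 72.2 on control, 75.7 on MIA, 155 on MIA2, near background on TANGO and MATE2, and 329.9 on LEMD1 siRNA. It rose by 4.57-fold on LEMD1 and by 2.15-fold on MIA2, and was at least 2.30-fold lower on both TANGO and MATE2. KIF11, the motor Eg5 that pushes spindle poles apart, was 214 on control, 199.6 on MIA, 264 on MIA2, 56.2 on TANGO, 81.9 on MATE2 and 559 on LEMD1 siRNA. It rose on LEMD1 (1.39) and fell on TANGO (-1.93) and MATE2 (-1.39).

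KIF14, which acts in cytokinesis, was 177 on control, 267 on MIA, 277 on MIA2, 175 on TANGO, 464 on MATE2 and 423 on LEMD1 siRNA. It rose on MATE2 (1.39) and LEMD1 (1.26), and its ratio of 0.59 on the MIA siRNA array was the highest of any member there. KIF23 fell on MATE2 (-1.42) and was at least 4.31-fold lower on TANGO. KIF15 (-1.51) and KIF2C (-1.09), a microtubule depolymerase, fell on TANGO, and KIF4A was near background there.

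In the spindle assembly group NUSAP1 (-1.84) and HMMR (-1.85) fell on TANGO, and DLGAP5 (1.44) and ASPM (1.31) rose on LEMD1. HMMR, which helps to focus spindle poles, had 404 on control, 344 on MIA, 523 on MIA2, 112 on TANGO, 259.6 on MATE2 and 728 on LEMD1 siRNA. ASPM had 178 on control, 196 on MIA, 318 on MIA2, 76.6 on MATE2 and 442 on LEMD1 siRNA, and on TANGO it was near background and at least 4.65-fold lower. In both genes TANGO was lowest, MATE2 next and LEMD1 highest, while control and MIA changed places. DLGAP5 had 228 on control, 188 on MIA, 265 on MIA2, 141 on TANGO, 386 on MATE2 and 616 on LEMD1 siRNA, so that MATE2 was on the high side for it.

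In the chromosomal passenger complex, which corrects attachments and directs cytokinesis, BIRC5 (survivin) rose on MIA2 and LEMD1 and fell on TANGO. It was 259 on control, 245 on MIA, 763 on MIA2, 76.3 on TANGO, 241 on MATE2 and 706 on LEMD1 siRNA, with ratios of 1.56 on MIA2, 1.45 on LEMD1 and -1.77 on TANGO. Its scaffold INCENP was at -0.79 on MIA2, 0.47 on TANGO and 0.22 on LEMD1, and CDCA8 (borealin) was within 2-fold on every array. AURKB, the kinase of this complex, fell on TANGO by its brightest probe, as BIRC5 did, while INCENP and CDCA8 were within 2-fold there.

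Of the cytokinesis genes, ANLN, which scaffolds the contractile ring, was 402 on control, 355 on MIA, 285 on MIA2, 109 on TANGO, 349.9 on MATE2 and 608 on LEMD1 siRNA and fell on TANGO (-1.88). RACGAP1 fell there too (-1.17), and ECT2, the exchange factor that RACGAP1 recruits, was at -0.53. TOP2A, which untangles sister chromatids, fell on TANGO (-1.75), from 322 on control to 96.0. MKI67, the Ki-67 proliferation marker, was 646 on control, 712 on MIA, 773 on MIA2, 1101 on TANGO, 1165 on MATE2 and 713 on LEMD1 siRNA. It was at 0.77 on TANGO, the side opposite to most members, without passing the rule. FOXM1, the transcription factor of this program, was between 185 and 317 on the 6 arrays, at -0.11 on TANGO and 0.51 on LEMD1.

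**Figure D2:**
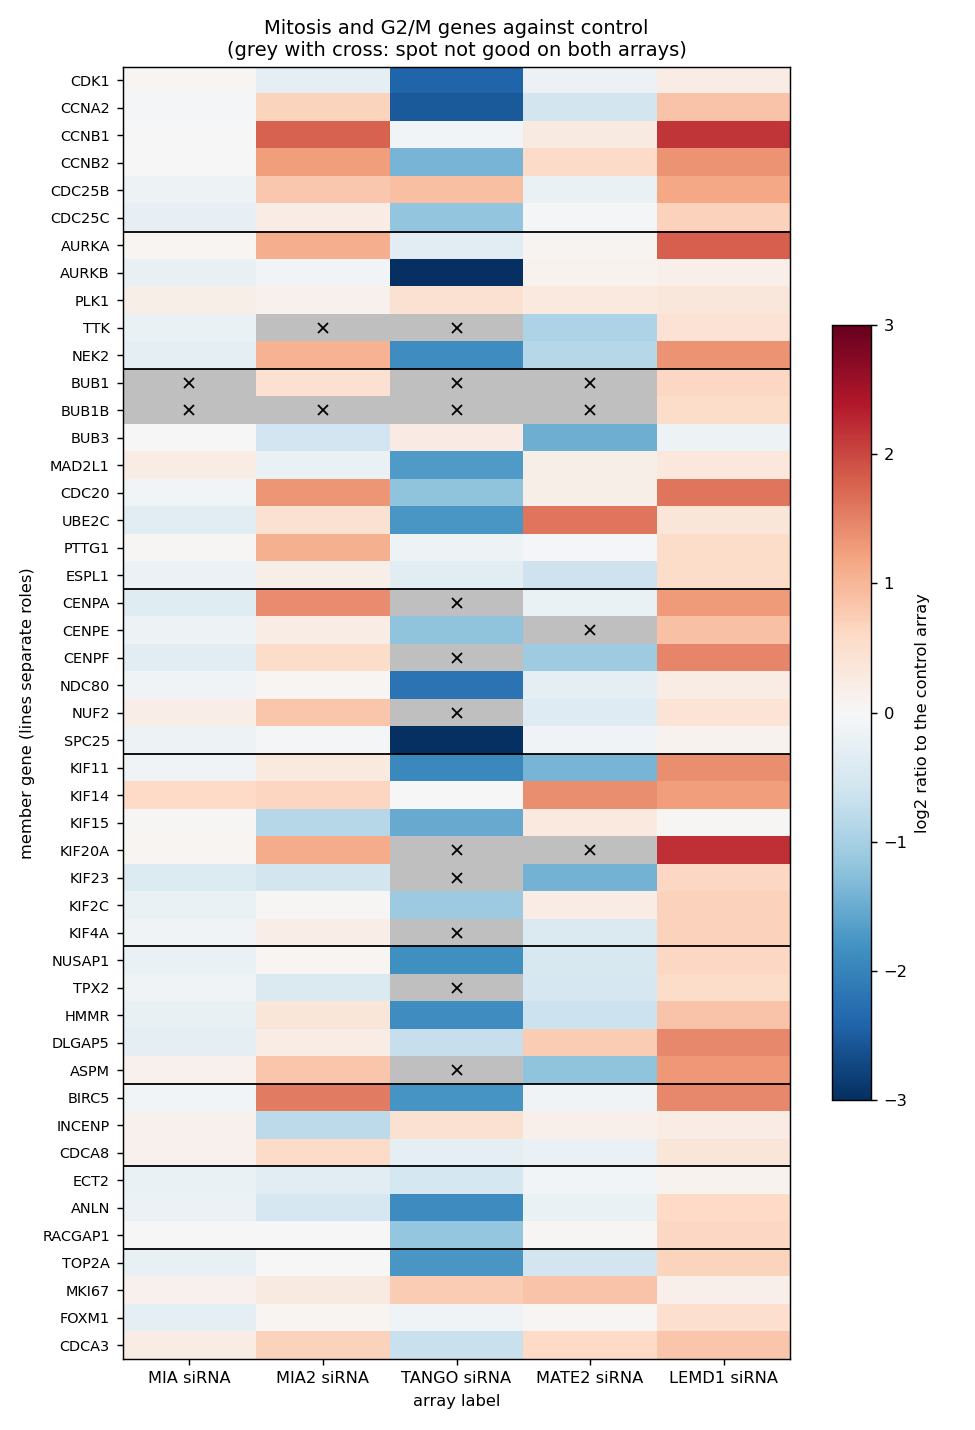
Log2 ratio to the control array of the 47 members (rows, lines separating the 9 roles) on the 5 siRNA arrays (columns), red higher and blue lower with colours ending at -3 and 3, and grey crossed cells where the spot was not good on both arrays. The TANGO siRNA column is mostly blue or crossed and the LEMD1 siRNA column mostly red, with CCNB1, AURKA, KIF14 and MKI67 among the cells of the TANGO column that are not blue by 2-fold.

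**Figure D3:**
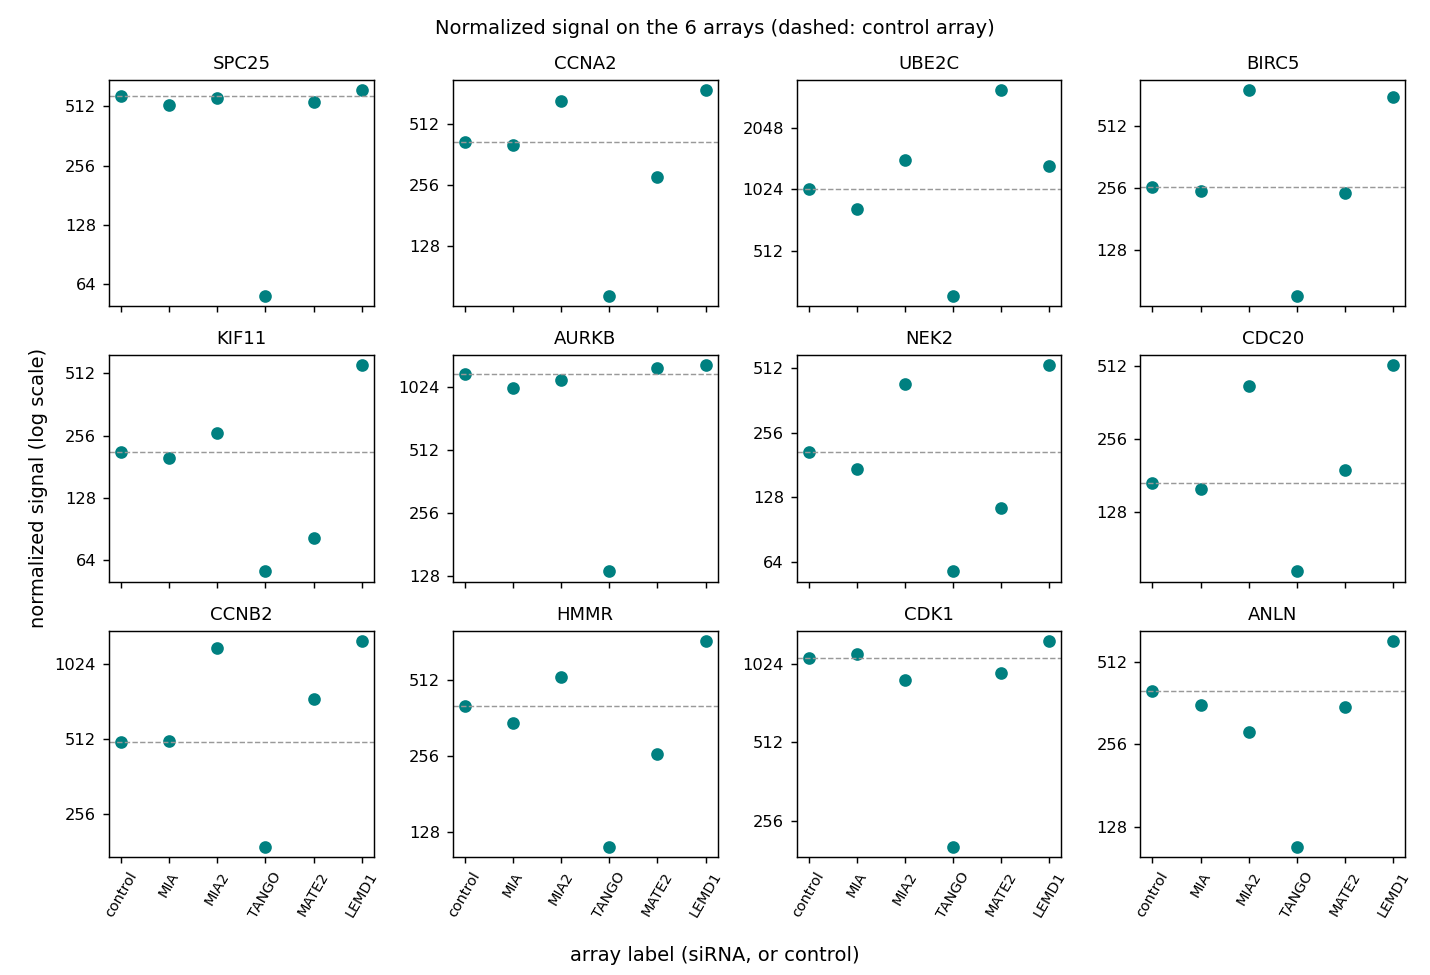
Normalized signal (log axis) on the 6 arrays of the 12 members with the widest range among those good on all arrays, with the control array as a dashed line. All 12 were lowest on the TANGO siRNA array, and UBE2C and BIRC5 were highest on MATE2 and MIA2 siRNA in place of LEMD1 siRNA.

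Set directly against the MIA2 siRNA array, on which LEMD1 was also near background, the LEMD1 siRNA array had 6 of 45 members risen and 0 fallen. The median was 0.45 against -0.03 over all genes, of which 0.605% rose and 0.299% fell, and 38 of 45 members were above 0. The 6 were DLGAP5 (1.22), KIF23 (1.17), ANLN (1.09), KIF20A (1.09), KIF11 (1.08) and INCENP (1.01). KIF23 was 93.2 on MIA2 and 209.7 on LEMD1 siRNA, and INCENP was 170.4 and 343, with 5 arrays of INCENP between 294 and 407 and MIA2 alone low.

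By role, the 7 kinesins had the highest median, 0.90, with values from 0.48 to 1.17 and 3 of 7 risen. CDK1, the cyclins and the phosphatases had a median of 0.37 with 0 of 6 risen, and the highest, CDK1, was at 0.50. The chromosomal passenger genes had a median of -0.11, with INCENP on one side and BIRC5 and CDCA8 below 0. PTTG1 (-0.52) and NUF2 (-0.41) were the members furthest below. With each array scaled to its median in place of quantile normalization, 2 of these 6 members still passed. With another treatment of background (normexp, no correction or 50 added to the signal) 1 did, DLGAP5. Under these treatments of background 25, 22 and 25 of all genes rose, in the same order. Scaling to the median moved the median of all genes to -0.15 while that of the members was 0.26. The split of all genes then turned from 77 risen and 38 fallen to 49 and 90.

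**Figure D4:**
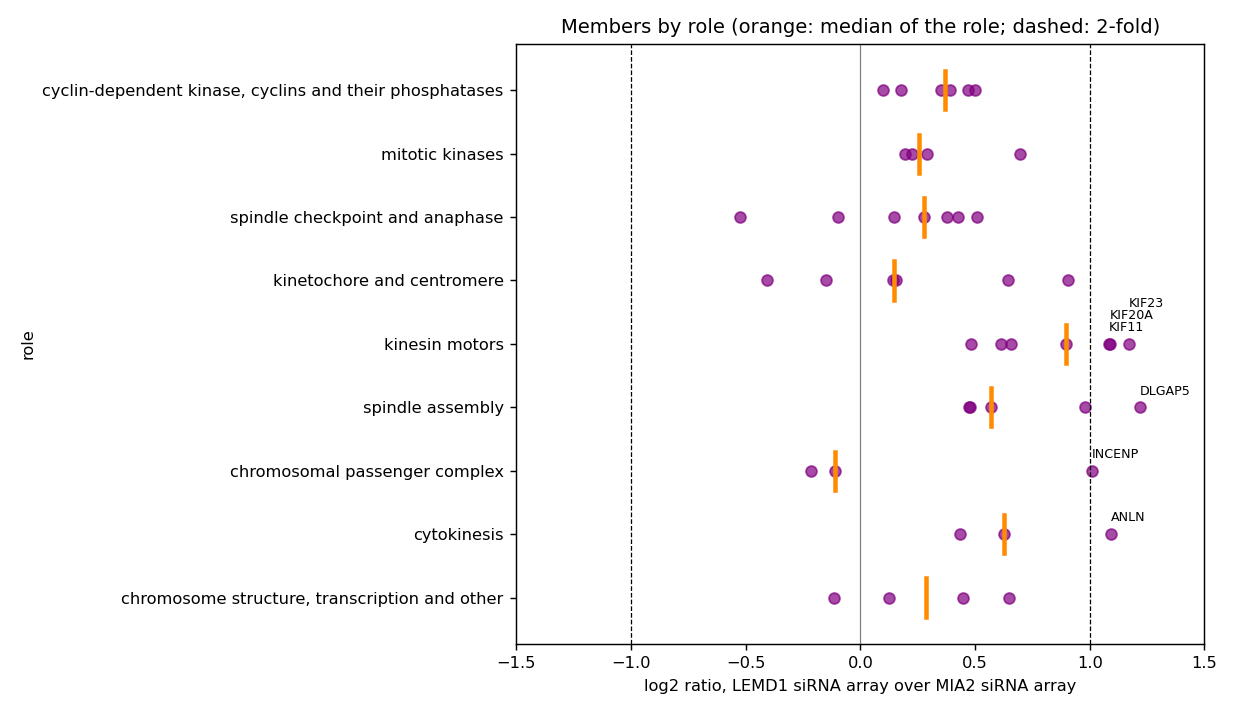
Log2 ratio of the LEMD1 siRNA array to the MIA2 siRNA array for each measured member (points) by role, with the median of the role in orange and 2-fold as dashed lines. The kinesins lie between 0.48 and 1.17, and the 6 named members pass 2-fold.

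Other cell cycle genes, from lists written with earlier results of these data known, are given beside the members by their counts. For comparison with these counts, of all genes 5.57% rose and 9.09% fell on TANGO and 5.95% and 11.7% on MATE2. The shares were 3.29% and 5.21% on MIA2 and 2.03% and 3.98% on LEMD1 siRNA. Of 31 further kinetochore and checkpoint genes measured, 16 fell and 1 rose on TANGO, with a median of -1.02. Among those that fell were CENPK (-3.06), CENPU (-2.80) and SKA2 (-2.61), subunits of the inner and outer kinetochore. On MATE2 11 of 31 fell and 1 rose, with CENPK at -2.04, CENPU at -2.31 and SKA2 at -3.34. On MIA2 6 of 30 fell and 0 rose. On LEMD1 siRNA 0 of 31 of them rose and 3 fell, with a median of -0.17, where the members had 0.62. Of the condensin and cohesin genes 8 of 18 fell on TANGO, 5 of 18 on MATE2 and 2 of 18 on MIA2. On LEMD1 0 of 19 rose and 2 fell. CDCA5, which protects cohesion, fell on TANGO (-3.28), MIA2 (-1.92) and LEMD1 (-1.22).

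Of the further kinesin, spindle and centrosome genes 8 of 25 fell on TANGO and 4 of 30 on MATE2, and 2 of 30 rose on MIA2. On LEMD1 siRNA 5 of 31 rose and 3 fell, beside 2.03% and 3.98% of all genes. FAM83D (1.93), PIF1 (1.76), GTSE1 (1.58) and KPNA2 (1.43) were among those that rose. PIF1 was counted in this list but encodes a DNA helicase. Its other probe disagreed, with 49.7 on control and 44.6 on LEMD1 (log2 -0.16). Of 16 genes of the anaphase-promoting complex and its enzymes 2 fell on TANGO, where 9.09% of all genes did. On MIA2 and on LEMD1 1 of the 16 rose and 1 fell. UBE2S, the enzyme that extends the ubiquitin chains begun by UBE2C, rose on MIA2 (1.33) and LEMD1 (1.26), and UBE2D1, another ubiquitin-conjugating enzyme, fell (-1.13 and -1.18).

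Of the cyclin-dependent kinase inhibitors and mitotic entry brakes 1 rose and 2 fell of 13 on TANGO, where 5.57% and 9.09% of all genes did. On MIA2 0 rose and 3 fell of 14 (all genes 3.29% and 5.21%). On MATE2 3 rose and 3 fell of 14 (5.95% and 11.7%), and on LEMD1 0 rose and 2 fell of 14 (2.03% and 3.98%). CDKN1A, the inhibitor p21, rose on TANGO (1.31), where CDKN1C, the inhibitor p57, fell (-1.30). CHEK1, a checkpoint kinase of DNA damage, fell on TANGO (-2.69), MATE2 (-1.90) and MIA2 (-1.11). GADD45A, an inducible stress gene that restrains CDK1, fell on MIA2 (-2.06) and LEMD1 (-2.39) and rose on MATE2 (1.51). CDKN1C also rose on MATE2 (2.39). Of the DREAM, MuvB and E2F regulators 0 of 19 passed the rule on LEMD1. Of 18 measured, 1 rose and 3 fell on TANGO, and 0 rose and 4 fell on MATE2.

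The replicative helicase and G1/S genes, used before mitosis, included genes that fell on 4 arrays. Of those measured, 12 of 16 fell on TANGO (median -1.73), 8 of 15 on MIA2 (-1.04), 6 of 16 on MATE2 (-0.54) and 4 of 15 on LEMD1 (-0.71), and 0 rose on any. Of all genes 9.09%, 5.21%, 11.7% and 3.98% fell on these arrays, in the same order. CDC6, which loads the helicase, fell by 1.17 on MIA2 and by 1.35 on LEMD1 on the log2 scale. On MIA2 and LEMD1 these genes were thus below control while the mitotic members had medians of 0.23 and 0.62. On the MIA siRNA array no gene of the 7 lists passed the rule.

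**Figure D5:**
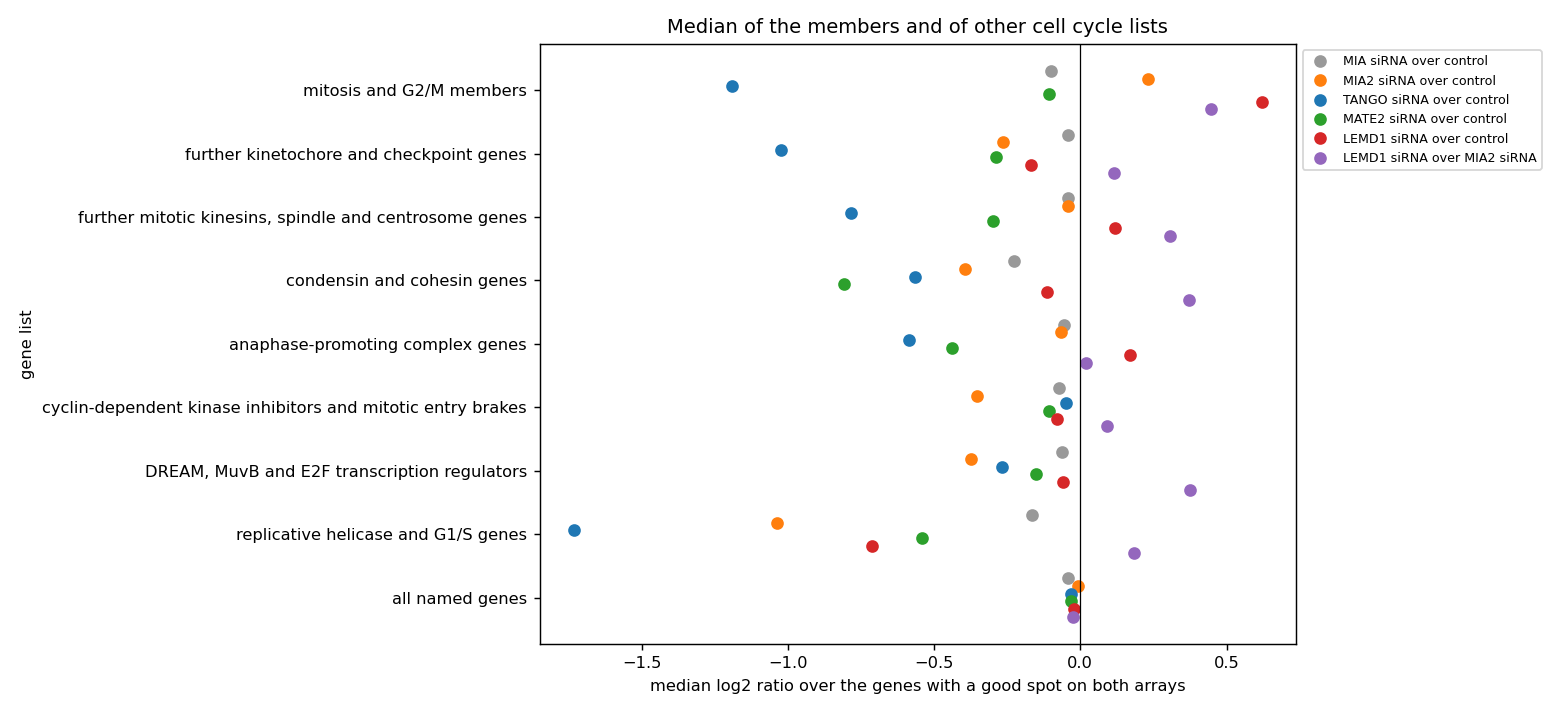
Median log2 ratio over the measured genes of the members, 7 other cell cycle lists and all named genes in the 6 comparisons (colours). The members are the list with the highest medians on LEMD1 siRNA (0.62) and MIA2 siRNA (0.23), and the replicative helicase and G1/S genes the lowest on TANGO siRNA (-1.73).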

How the data were processed

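RNA of HSC3 cells was measured on 6 CodeLink arrays, 1 per condition, and groups were taken from the labels. The deposited scanner files, exported by the authors with CodeLink Expression Analysis 5.0.0.31312, hold the intensity of each spot, here the spot mean less the median local background (held within 0.0001). The deposited normalized table, quantile normalized by the authors, is a linear intensity and served as an alternative. Control spots and 320 of 53423 gene probes masked on any array were left out. Quantile normalization ran over all 6 arrays, followed by a floor of 1 and a log2 scale. Symbols came from the platform table for 23311 probes and from the sequence accession for 649, while 898 probes with several genes and 28245 without a name gave none. The probe with the highest mean log2 signal stood for a gene, and 4 members had more than 1 probe. A gene near background was given a bound, taken from its own signal or, if higher, the lowest good signal of that array.

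A call needed a log2 ratio of 1 or more in either direction, with no test, since 1 array per condition leaves no replicate error. The naming rule took all members called in any comparison, the signals of the 12 with the widest range and at most 4 called genes of each other list to name. Members named with ratios under 2-fold were picked with their values in view. The members, lists and alternatives were chosen with earlier results of these data known. Alternatives were scaling to the median, normalization of the 2 arrays alone, normexp (limma 3.58.1, R 4.3.3) (offset 50), the deposited table, no background correction, 50 added to the signal, looser flags, bright probes, the mean over probes, the MIA siRNA array as comparator and, added after seeing the data, normalization without the TANGO and MATE2 siRNA arrays. The level of background sets which genes have a ratio at all. Scripts used Python 3.11.15, numpy 2.4.6 and pandas 2.3.3, and promoters came from RefSeq.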

Additional observations from a re-analysis of the deposited data

How the results depend on the processing

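None of the 57 ratios of called members changed sign under the alternatives, which were not run for the ratios of members named under 2-fold. The counts on the MIA and LEMD1 siRNA arrays against control stayed within 1.5 times. Members risen on MIA2 siRNA were 9, but 5 with normexp, 4 with no background correction and 5 with 50 added to the signal, and CCNB1, CCNB2, CDC20 and BIRC5 passed under every alternative. In the same order the TANGO median of -1.19 became -0.92, -0.84 and -0.93, with 15 in place of 21 fallen, the 5 fallen on MATE2 siRNA became 1, 1 and 2, and the 6 risen on LEMD1 over MIA2 siRNA became 1 each, DLGAP5. These alternatives shrink the ratios of dim spots by their construction, and all genes lost calls too. In the same order, the 410 genes risen on MIA2 became 211, 188 and 216. The 1139 fallen on TANGO became 675, 621 and 690, and the 1466 fallen on MATE2 became 951, 862 and 965. The 77 risen on LEMD1 over MIA2 became 25, 22 and 25. With flags loosened to 1 good spot of the pair, or ignored, 32 members fell on TANGO, 8 on MATE2 and 1 on MIA2 siRNA. Bright probes alone left 2 of 30 members fallen on MATE2, beside 1169 of 7421 genes. With the MIA siRNA array as comparator 3 fell on MATE2 and 1 rose on TANGO, and the cause was not tested. Scaling to the median left 2 risen on LEMD1 over MIA2, and moved the median of all genes to -0.12 on TANGO and -0.15 on LEMD1 over MIA2. It turned the split of all genes from 410 risen and 649 fallen to 576 and 541 on MIA2, and from 698 and 1139 to 522 and 1363 on TANGO. Of 57 ratios of called members, 53 stayed past 2-fold with that scaling, 36 with normexp, 35 with no background correction and 37 with 50 added. Normalization without the TANGO and MATE2 siRNA arrays left 9, 14 and 6 members risen on MIA2, on LEMD1 and on LEMD1 over MIA2. No paired analysis was possible because each condition has 1 array and all carry the same replicate number.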
